A study of Rattus norvegicus with 6 samples.

Results

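Articular and growth cartilage owe their tensile strength to thin fibrils in which several collagens are assembled together. Type II collagen, made of identical chains encoded by Col2a1, forms the bulk of the fibril. Type XI collagen, whose chains come from Col11a1, Col11a2 and a product of Col2a1, lies within it and limits its width. Type IX collagen, built in equal parts from Col9a1, Col9a2 and Col9a3, is a fibril-associated collagen with interrupted triple helices that sits on the fibril surface and is crosslinked to type II. Col27a1 encodes type XXVII collagen, a fibril-forming chain of cartilage with a shorter helix. These 7 genes were chosen by name from the 18923 genes listed in the files, and each name matched 1 gene identifier.

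Chondrocytes were isolated from the cartilage of wild-type Sprague-Dawley rats that were 24 h old and female, and were used at passage 1 or 2. The 2 groups, CON and RA, had 3 samples each and 24 h of culture in high-glucose DMEM, 10% FBS and 1% penicillin-streptomycin. They differed in 1 µM all-trans retinoic acid (ATRA), added for RA alone. ATRA is the acid form of vitamin A and acts through nuclear receptors. A vehicle for CON is not named in the sources used here. The sources do not say how many animals were pooled or whether a sample is a separate animal, so the p-values below measure the spread between these cultures. Poly(A) RNA was sequenced, which gave between 30170909 and 38007486 counted reads per CON sample and between 29370025 and 30952882 per RA sample.

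CON sample 1 stood apart from its group over all genes tested. Its log2 CPM (counts scaled to library size) over 13438 genes correlated with those of the other CON samples at 0.983 and 0.985, whereas CON samples 2 and 3 correlated at 0.992 and the RA samples with each other at 0.991. Values of single genes and ratios that changed in call, direction or overlap, or by over 1.5 times, without this sample are therefore given with and without it. The chondrocyte label was checked against 10 marker genes other than the collagens studied here, which include Acan, Hapln1 and Matn1. Their summed level ran from 1846 to 2113 FPKM (read counts scaled to gene length and library size) in CON and from 868 to 943 FPKM in RA. Of the 10, 7 were called lower in RA, beside 2.29% of all tested genes, and 1, Cytl1, higher. A list of fibroblast and perichondrium markers, of which Col1a1, Col3a1 and Thy1 were the most abundant, summed to between 3852 and 5032 FPKM in CON and to between 4983 and 5230.1 FPKM in RA, so the sums, which are mostly Col1a1 and Col3a1, overlapped. Of its 9 tested genes 1 was called, Postn, which was lower. On the adjusted p alone (edgeR), 3 were higher in RA, opposite in direction to the fibril collagens: Pdgfra (log2 fold change 0.44), Prrx1 (0.49) and Twist1 (0.43). By that measure 1319 of all 13438 genes passed in either direction. The groups did not overlap in these 3 genes, and the share of all genes higher without overlap was not computed. Besides Postn, Dcn (-0.41) was lower on the adjusted p alone. The 9 macrophage markers summed to 13.8 to 15.0 FPKM in CON and 16.4 to 17.9 FPKM in RA, nearly all of it from Cd14, and the defining genes Ptprc and Adgre1 had means of at most 0.0152 FPKM in either group. Markers of endothelium (5.46 to 8.02 FPKM in CON, 6.18 to 6.83 in RA), skeletal muscle (9.23 to 10.9 and 8.93 to 10.9) and osteoblasts (8.25 to 9.56 and 8.27 to 8.52) were also low in sum, with the endothelial gene Emcn at 0 in every sample. Of the tested genes of these lists, 0 of 4 macrophage and 0 of 2 endothelial genes were called by edgeR (1 and 0 at an unadjusted p below 0.05, and 0 by DESeq2 or limma). Of 3 muscle genes Myod1 was called higher and Tnnt3 lower, and of 4 osteoblast genes Ibsp was called higher. Alpl, the most abundant osteoblast gene, was lower on the adjusted p alone (-0.42, edgeR adjusted p = 0.0219). The part of these markers in the results below was not tested. In RNA from whole cultures, fewer cells of a type and less RNA per cell cannot be told apart.

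All 7 fibril collagen genes were lower in RA than in CON, and 6 of them were called. A gene was called when edgeR's quasi-likelihood test gave an adjusted p below 0.05 (Benjamini-Hochberg over the 13438 genes tested) and the log2 fold change passed 0.58 in either direction. By this rule 2.29% of all tested genes were lower in RA. On the adjusted p alone all 7 passed with all samples, against 4.5% of all genes that passed in that direction, although Col9a3 was close to the threshold and passed in 1 of the 6 sets with a sample left out. In each of the 7 genes every RA sample lay below every CON sample in CPM, which was the case for 15.1% of all genes. The median log2 fold change of the 7 genes was -0.76, within a range from -1.43 to -0.52, while the median over all tested genes was -0.0057. Together the 7 genes took 3.62%, 4.35% and 4.47% of all counted reads in CON samples 1, 2 and 3, and 2.44%, 2.58% and 2.55% in RA samples 1, 2 and 3. The fewest reads behind any value were 4095, for Col27a1 in RA sample 1, so counting error was small beside the spread between cultures.

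**Figure D1:**
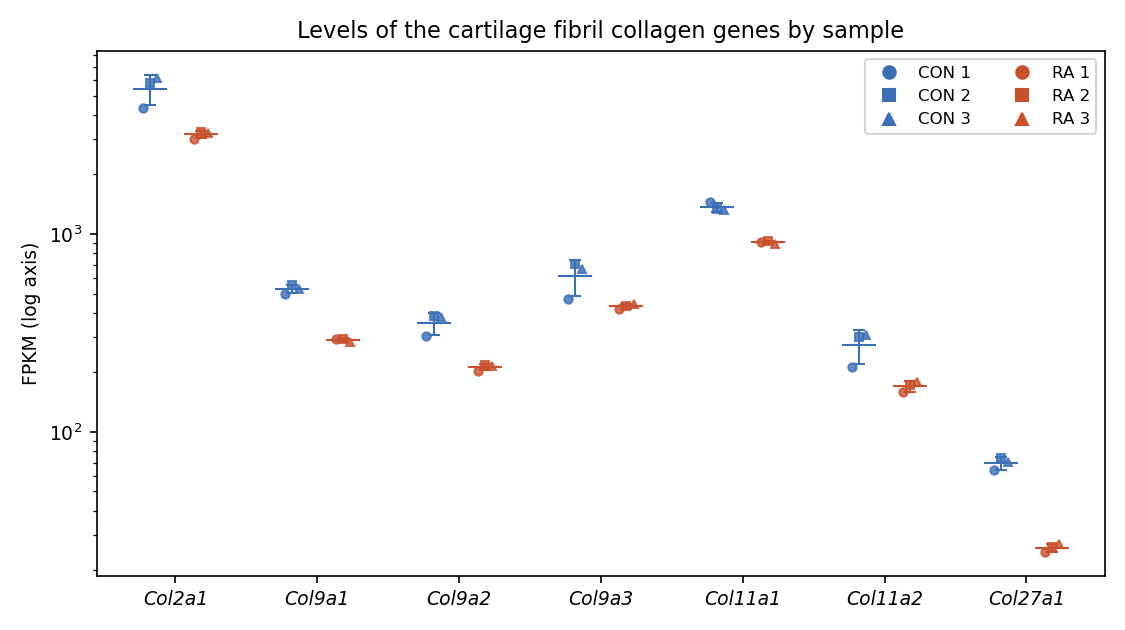
FPKM of the 7 fibril collagen genes in each of the 6 samples, on a log axis, with CON samples in blue and RA samples in red; the dash and bar give the mean and SD of 3 samples. Each RA group lies below its CON group, and CON sample 1 (the blue circle) is the lowest CON value in every gene except Col11a1, where it is the highest.

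Col2a1 (ENSRNOG00000058560), the main chain of the fibril, measured 4328, 5797 and 6135 FPKM in CON samples 1, 2 and 3 and 3023, 3281 and 3252 FPKM in RA samples 1, 2 and 3. The CON samples thus spread widely, with sample 1 well below the others, while the RA samples were close together. The log2 fold change was -0.78 (SE 0.119, edgeR adjusted p = 0.00457), which corresponds to a level 41.8% lower in RA. Without CON sample 1 it was -0.92. Per length, Col2a1 ranked between the 2nd and 9th most abundant of all 18923 genes in CON and between the 11th and 13th in RA.

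The type XI chains differed from each other in how the CON samples were ordered. Col11a1 (ENSRNOG00000023148), which encodes the alpha 1 chain, measured 1443, 1334 and 1313 FPKM in CON samples 1, 2 and 3 and 913, 919 and 891 FPKM in RA samples 1, 2 and 3. Here CON sample 1 was the highest, and the values within each group varied little. Its log2 fold change of -0.60 (SE 0.0453, edgeR adjusted p = 1.29e-04) lay just past the fold threshold. Without CON sample 1 the change was -0.56, with an adjusted p of 2.70e-08 by the same edgeR test, and it was no longer called because the fold fell short. Col11a2 (ENSRNOG00000000463), the alpha 2 chain, measured 213, 301 and 309 FPKM in the CON samples and 158, 173 and 179 FPKM in the RA samples. As with Col2a1, CON sample 1 was the low one. The log2 fold change was -0.70 (SE 0.134, edgeR adjusted p = 0.0132). The call of Col11a2 was lost when CON sample 2 (-0.64), RA sample 1 (-0.64) or the 2nd RA sample (-0.71) was left out, with adjusted p of 0.0619, 0.0709 and 0.0587 from edgeR, and without CON sample 1 the change was -0.85.

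The 3 genes of type IX collagen had estimated log2 fold changes from -0.86 to -0.52, with 95% intervals that overlapped. Col9a1 (ENSRNOG00000012920), whose chain carries the globular end of the molecule, measured 499.5, 552 and 528 FPKM in CON and 296, 295 and 284 FPKM in RA. The samples of each group were tight and the groups far apart, with a log2 fold change of -0.86 (SE 0.0537, edgeR adjusted p = 5.59e-05) that stayed between -0.90 and -0.84 whichever sample was left out. Col9a2 (ENSRNOG00000011502) measured 303, 385 and 378 FPKM in CON and 203, 217 and 216 FPKM in RA, a log2 fold change of -0.76 (SE 0.0942, edgeR adjusted p = 0.00168). Col9a3 (ENSRNOG00000009531) measured 471, 701 and 664 FPKM in CON and 416, 431 and 444 FPKM in RA. CON sample 1 was again low, and the nearest of the CON samples to the RA range. Col9a3 had the smallest change of the 7 genes, -0.52 (SE 0.134, edgeR adjusted p = 0.0457), and was the gene not called, although its 95% interval of -0.83 to -0.21 included the threshold. Without CON sample 1 the change was -0.68 and the gene was called, whereas in the other 5 sets with 1 sample left out it did not pass the adjusted p either, at 0.153 without CON sample 2 (-0.42), 0.0921 without CON sample 3 (-0.45), and 0.161 (-0.49), 0.149 (-0.53) and 0.133 (-0.55) when RA samples 1, 2 and 3 were left out, all from edgeR.

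Col27a1 (ENSRNOG00000007657) was the least abundant of the 7 and changed most. It measured 63.9, 73.7 and 70.5 FPKM in CON and 24.8, 26.1 and 27.2 FPKM in RA, with no sample of either group near the other group. The log2 fold change was -1.43 (SE 0.0738, edgeR adjusted p = 2.38e-05), a level 62.8% lower in RA, and leaving out any sample kept it from -1.49 to -1.39. Its 95% interval, -1.60 to -1.26, did not meet that of any other fibril collagen gene, of which the lowest reached -1.05. Its place in the order of all genes by FPKM moved from between 1019 and 1193 in CON to between 2863 and 3180 in RA.

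**Figure D2:**
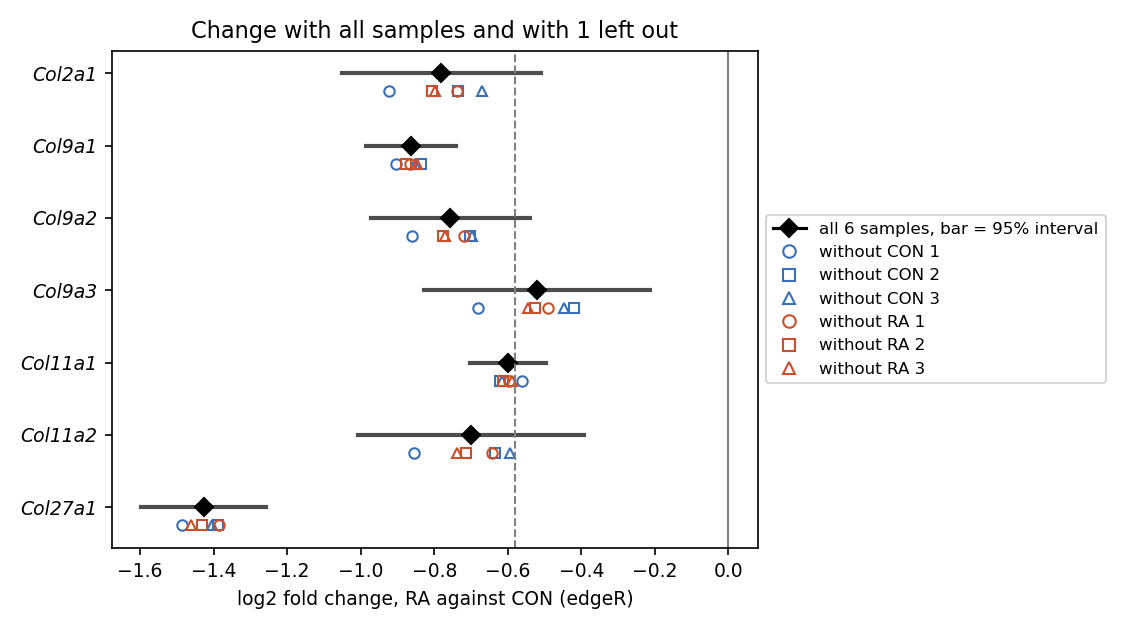
Log2 fold change of each gene between RA and CON from edgeR, with all 6 samples (black diamond, bar for the 95% interval) and with each sample left out (open symbols); the dashed line marks the fold threshold, 0.58 below 0. Leaving out CON sample 1 (blue circle) gave the largest fall in every gene except Col11a1, where it gave the smallest.

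By type, Col2a1 made up 59.1%, 63.4% and 65.3% of the summed FPKM of the 7 genes in CON samples 1, 2 and 3 and 60.1%, 61.4% and 61.4% in RA. The type IX genes held 16.7% to 17.9% in CON and 17.7% to 18.2% in RA, and the type XI genes Col11a1 and Col11a2 held 22.6%, 17.9% and 17.3% in CON and 21.3%, 20.4% and 20.2% in RA. Of the 4 shares, that of Col27a1 was the one whose groups did not overlap, at 0.873%, 0.806% and 0.750% in CON and 0.492%, 0.489% and 0.514% in RA.

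The order of levels within a group was nearly the same in all samples. By mean FPKM in CON, Col2a1 (5420.1 ± 961, SD, n = 3) stood far above Col11a1 (1364 ± 69.6), which was followed by Col9a3 (612 ± 124), Col9a1 (526 ± 26.1), Col9a2 (355 ± 45.2), Col11a2 (274 ± 52.9) and Col27a1 (69.4 ± 4.98). The ranges of Col9a3 and Col9a1 overlapped in CON, and so did those of Col9a2 and Col11a2. In RA the means were 3185 ± 141, 908 ± 14.9, 430.4 ± 13.9, 292 ± 6.72, 212 ± 7.91, 170.4 ± 10.8 and 26.0 ± 1.21 FPKM in the same order (SD, n = 3), and no neighbours overlapped. These comparisons between genes depend on the gene lengths behind the FPKM, which were 4538 nt for Col2a1, 7673 for Col11a1, 2040 for Col9a3, 3804 for Col9a1, 2954 for Col9a2, 6304 for Col11a2 and 5568 for Col27a1. The spread within CON was uneven: the SD was 17.7% of the mean for Col2a1, 20.2% for Col9a3, 19.3% for Col11a2 and 12.7% for Col9a2, but 4.96% for Col9a1, 5.10% for Col11a1 and 7.18% for Col27a1. In RA it was at most 6.33%, for Col11a2. With CON sample 1 left out, the changes of Col2a1 (-0.92), Col9a1 (-0.90), Col9a2 (-0.86) and Col11a2 (-0.85) lay close together, with Col9a3 (-0.68) and Col11a1 (-0.56) smaller and Col27a1 (-1.49) larger.

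Whether the chains of one collagen type kept their proportions was examined by the ratio of FPKM between genes within a sample, which does not depend on scaling between samples. A set of 9 ratios was compared by a two-sided exact permutation test; with 3 samples against 3 the smallest p is 0.1, so none could pass 0.05. Within type IX, Col9a3 against Col9a1 was 0.942, 1.27 and 1.26 in CON samples 1, 2 and 3 and 1.41, 1.46 and 1.56 in RA samples 1, 2 and 3. Every RA sample was above every CON sample, by 0.36 on the log2 scale between the means (exact permutation p = 0.1, 0.18 after Benjamini-Hochberg adjustment over the 9 ratios). Without CON sample 1 this difference was 0.22, and the groups still did not overlap. Col9a3 against Col9a2 was 1.55, 1.82 and 1.76 in CON and 2.05, 1.98 and 2.05 in RA, a difference of 0.25 with the same exact permutation p of 0.1 and again no overlap. Col9a2 against Col9a1 was 0.607, 0.697 and 0.717 in CON and 0.687, 0.736 and 0.761 in RA, and the groups overlapped (difference 0.11, exact permutation p = 0.3, and 0.041 without CON sample 1). Both ratios with Col9a3 as numerator thus separated the groups.

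Within type XI the ratio depended on CON sample 1. Col11a2 against Col11a1 was 0.148 in that sample but 0.225 and 0.235 in CON samples 2 and 3, and the RA samples lay between, at 0.174, 0.189 and 0.201. The difference was -0.082 on the log2 scale with all samples (exact permutation p = 0.8), and -0.29 without CON sample 1, where the groups did not overlap (exact permutation p = 0.1 with 2 samples against 3). Without CON sample 2 or 3 it turned to 0.0092 or 0.040 (exact permutation p = 0.9 in each). Col11a1 against Col2a1 also depended on CON sample 1, at 0.333, 0.230 and 0.214 in CON and 0.302, 0.280 and 0.274 in RA. With all samples the difference was 0.17 (exact permutation p = 0.4), and without CON sample 1 it was 0.36 with no overlap, but without CON sample 2 or 3 it was 0.094 or 0.041 (exact permutation p = 0.8 and 0.9). Col9a1 against Col2a1 was 0.115, 0.0952 and 0.0860 in CON and 0.0979, 0.0901 and 0.0873 in RA, which overlapped with or without that sample (difference -0.099 and 0.019).

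Col27a1 fell in relation to Col2a1, from ratios of 0.0148, 0.0127 and 0.0115 in CON to 0.00819, 0.00796 and 0.00836 in RA. The groups did not overlap, with a difference of -0.66 on the log2 scale (exact permutation p = 0.1, adjusted 0.18) and -0.57 without CON sample 1. Against the fibril collagen of fibrous tissues, type I, the balance moved the other way. Col1a1 against Col2a1 was 0.558, 0.535 and 0.557 in CON and 1.11, 1.09 and 1.07 in RA, so Col1a1 was below Col2a1 per length in each CON sample and above it in each RA sample. Its SD was 0.034 in CON and 0.028 in RA on the log2 scale, beside a difference of 0.99 (exact permutation p = 0.1, adjusted 0.18; 1.00 without CON sample 1). The change of Col1a1 itself, 0.21 on the log2 scale (SE 0.113), missed the call with an edgeR adjusted p of 0.301, and was 0.078 without CON sample 1. Col10a1, the collagen of hypertrophic chondrocytes, was near the lower end of detection, at 0.198 ± 0.0809 FPKM in CON and 0.890 ± 0.283 FPKM in RA (SD, n = 3), with at most 73 reads in a sample. Its log2 fold change was 2.16 (SE 0.372, edgeR adjusted p = 0.00807), and its log2 ratio to Col2a1 rose from -14.80 to -11.85 between the group means without overlap. Of the 9 ratios, 5 did not overlap between groups with all samples and 7 without CON sample 1. These counts are a description only, since the share over all pairs of genes was not computed and several ratios share a gene.

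**Figure D3:**
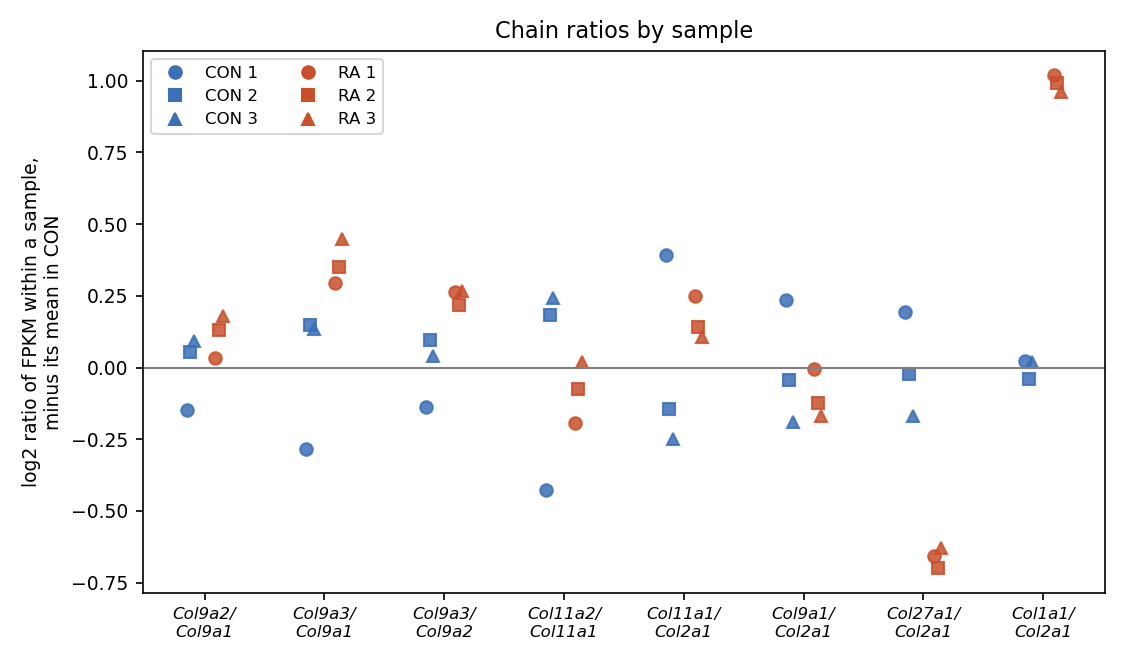
Log2 ratio of FPKM between genes within each sample, minus the mean of that ratio in CON, for 8 of the 9 ratios (Col10a1 against Col2a1 is off this scale); blue, CON; red, RA. Col1a1 against Col2a1 rises by 0.99 and Col27a1 against Col2a1 falls by 0.66 between the group means, and CON sample 1 (blue circle) lies apart in the ratios within types IX and XI.

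The promoters of the genes differed in base composition. RefSeq promoters (assembly GRCr8, 250 bases before to 50 after the start) were matched for 5 of the 7 genes; Col2a1 and Col9a3 had no entry in the table used. They were searched on both strands for the SOX core ACAAAG or ACAATG, the GC box GGGCGG, the nuclear receptor half-site AGGTCA and the TATA box TATAAA. The GC box was in 3 of the 5, Col11a1 (3 matches), Col11a2 (3) and Col27a1 (2), and in 33.1% of all 33469 promoters. The other motifs had no match in the 5 windows, against 29.1% of all promoters for the SOX core, 16.2% for the half-site and 14.2% for the TATA box, which says only that these letters are not in these windows. GC content was 49.3% for Col9a1, 53% for Col9a2, 64.7% for Col11a1, 62.7% for Col11a2 and 61% for Col27a1, beside a median of 51.7% over all promoters, and the Col9a1 window held 0 CpG dinucleotides where that of Col27a1 held 15. Those of Col9a1 and Col27a1 are shown as the extremes in CpG, and that of Col11a1 as the called gene with the smallest fall. The windows are chr9:34081114-34081413, chr5:81662658-81662957 and chr2:204508886-204509185 in that order, each on the plus strand, and capitals mark the GC boxes.
Col9a1: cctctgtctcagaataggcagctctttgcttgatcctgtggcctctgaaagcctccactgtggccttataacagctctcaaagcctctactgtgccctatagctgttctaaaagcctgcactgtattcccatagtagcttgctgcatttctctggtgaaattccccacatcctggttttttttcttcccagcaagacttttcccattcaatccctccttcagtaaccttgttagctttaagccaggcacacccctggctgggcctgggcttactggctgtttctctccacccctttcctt
Col27a1: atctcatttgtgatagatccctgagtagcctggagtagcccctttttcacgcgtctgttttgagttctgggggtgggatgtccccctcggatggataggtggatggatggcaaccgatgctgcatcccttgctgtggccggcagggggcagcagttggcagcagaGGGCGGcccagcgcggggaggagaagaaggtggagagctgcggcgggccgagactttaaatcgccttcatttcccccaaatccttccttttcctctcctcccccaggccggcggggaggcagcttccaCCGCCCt
Col11a1: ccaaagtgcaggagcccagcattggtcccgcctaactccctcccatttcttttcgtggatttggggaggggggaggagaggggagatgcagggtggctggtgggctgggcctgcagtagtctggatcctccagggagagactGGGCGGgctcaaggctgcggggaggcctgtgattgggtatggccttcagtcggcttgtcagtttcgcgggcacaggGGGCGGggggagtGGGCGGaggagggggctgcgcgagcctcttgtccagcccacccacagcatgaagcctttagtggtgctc

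Genes that act on the fibril collagens were counted in the same fit over all genes, in which 4.96% of the 13438 genes were called in either direction. SOX9, with SOX5 and SOX6, binds enhancers of the cartilage collagen genes. Of 10 regulators tested, 2 were called, both lower. Sox6 measured 7.16, 6.99 and 6.72 FPKM in CON and 4.11, 4.72 and 4.99 FPKM in RA, a log2 fold change of -0.61 (SE 0.0956). Wwp2, which encodes a ubiquitin ligase and hosts a cartilage microRNA, measured 85.8, 87.2 and 85.9 FPKM in CON and 38.6, 44.8 and 41.4 FPKM in RA, a change of -1.07. A further 3 passed the test but not the fold threshold: Sox9 (-0.49, adjusted p = 0.00608, edgeR), Sox5 (-0.51, adjusted p = 0.00567, edgeR) and Creb3l2 (-0.44, adjusted p = 0.00255, edgeR). In each of these 3 the groups did not overlap in FPKM.

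Of 21 tested genes for the chaperones, hydroxylases and export factors that fold, modify and move collagen chains, 1 was called. This was Colgalt2, which encodes an enzyme that adds galactose to collagen hydroxylysine; it measured 20.2, 16.4 and 17.96 FPKM in CON and 4.99, 4.85 and 4.77 FPKM in RA (log2 fold change -1.91, SE 0.0973). A further 5 genes were lower on the adjusted p alone (edgeR) without passing the fold threshold: Fkbp14 (-0.54), Crtap (listed in the files as Crtapl1, -0.41), Serpinh1 (-0.25), Sec23a (-0.25) and P3h1 (-0.24). Serpinh1 encodes HSP47, the collagen-specific chaperone. The median over the 21 genes was -0.16. Of 6 tested genes for procollagen peptidases and their enhancers, 0 were called by edgeR, DESeq2 or limma and 1, Adamts14, passed the adjusted p alone (0.41, edgeR adjusted p = 0.0457) and was also the 1 with an unadjusted p below 0.05 (median 0.058). Among 5 genes for lysyl oxidases, which crosslink the chains, Lox was lower (-0.62) and Loxl1 higher (0.93, and 0.74 without CON sample 1). Loxl4 was higher on the adjusted p alone (0.32, edgeR adjusted p = 0.0228).

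Of 13 tested genes for proteins of the fibril surface, 6 were called and all were lower. The largest falls were those of Epyc (-1.75) and Fmod (-1.01), which encode small leucine-rich proteoglycans, and of the matrilin genes Matn3 (-1.65) and Matn1 (-0.93). Matn3 measured 108, 129.7 and 107 FPKM in CON and 36.5, 39.2 and 35.1 FPKM in RA, with no sample of one group near the other. A further 3 were lower on the adjusted p alone (edgeR): Dcn (-0.41), Thbs1 (-0.41) and Prelp (-0.27). The median over the 13 genes was -0.52, and 7 were called without CON sample 1, with Matn4 added. Of 6 tested genes for proteases that cleave type II collagen or act beside those that do, 3 were called and all were higher. Mmp13, the main collagenase of cartilage, measured 64.3, 47.5 and 40.9 FPKM in CON and 256, 223 and 261 FPKM in RA (2.26, SE 0.153). Mmp3, a stromelysin, rose by 1.02 and the gelatinase gene Mmp9 by 2.88 on the log2 scale, the latter from a mean of 0.134 FPKM. Among 8 genes for collagen receptors 1 was called, Itga2, higher by 1.78 from a mean of 0.287 FPKM. On the adjusted p alone (edgeR) Itgb1 was also higher (0.27) and Itga10 lower (-0.42).

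The other collagen genes were counted by the same rule, under which 2.29% of all genes were called lower. Over all 27 of them tested, edgeR called 0 lower and 4 higher (Col7a1, Col8a1, Col10a1 and Col18a1), beside 359 of all 13438 genes called higher. On the adjusted p alone (edgeR) 4 of the 27 were lower, beside 4.5% of all genes. At an unadjusted edgeR p below 0.05 7 were lower, while DESeq2 called 2 lower (Col24a1 and Col4a6) and limma 0. Their median log2 fold change was -0.061, beside -0.76 for the 7 fibril collagen genes. Col12a1 (-0.55, edgeR adjusted p = 0.00111) and Col16a1 (-0.51, edgeR adjusted p = 0.00854, called at -0.61 without CON sample 1) had changes close to that of Col9a3. A count of 0 among 27 called lower is near the 2.29% of all genes, and the difference between these sets of genes was not tested. Of 6 other fibrillar collagens, 0 were called by edgeR or limma, 2 had an unadjusted edgeR p below 0.05 and DESeq2 called 1, Col24a1. Col24a1, the fibrillar chain closest in structure to Col27a1, was at 0.611 FPKM in CON and 0.353 FPKM in RA on average, with a log2 fold change of -0.80 (SE 0.219, edgeR adjusted p = 0.0565). Col3a1 measured 899, 1034 and 1095 FPKM in CON and 1010.2, 1023 and 1022 FPKM in RA, so the RA values lay above CON sample 1 and below CON samples 2 and 3 (log2 fold change -0.00068, SE 0.0737, and -0.081 without CON sample 1). The 8 tested collagens of types VI, X, XII, XIV and others had a median of -0.32, and 1 was called, Col10a1.

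**Figure D4:**
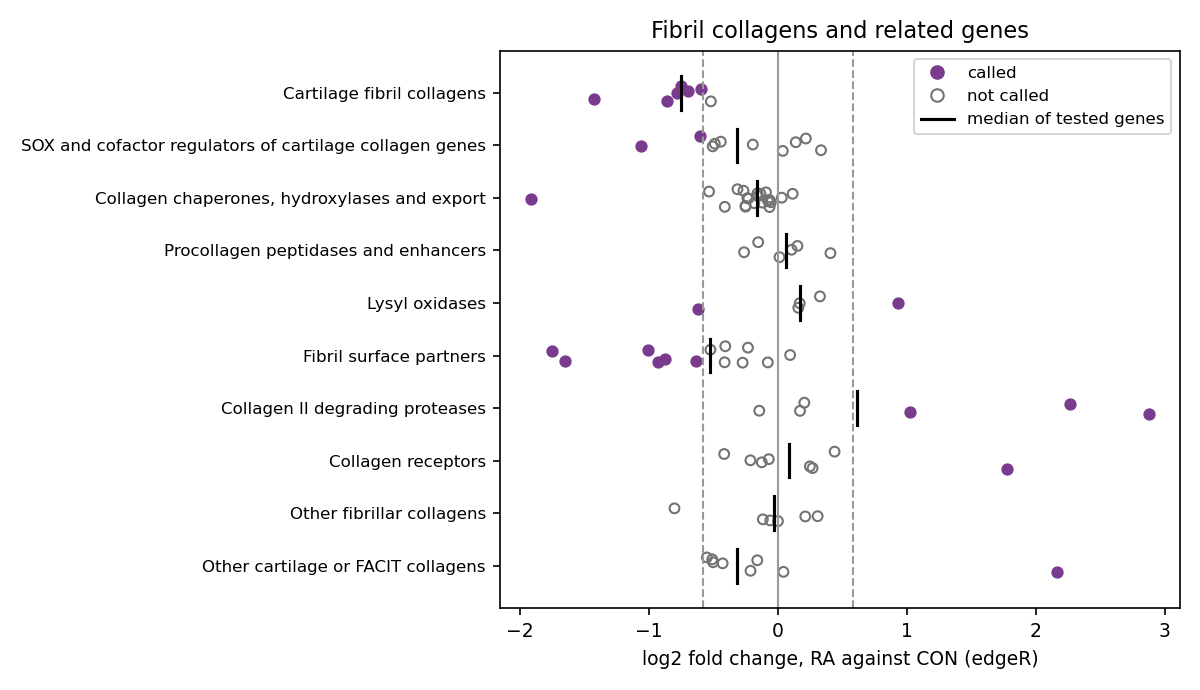
Log2 fold change between RA and CON of each tested gene (points, filled where called), grouped by role, with the median of each group as a black line and dashed lines at the fold threshold of 0.58 in each direction. The genes of the fibril collagens and of the fibril surface proteins lie to the left, with medians of -0.76 and -0.52. Those of the other fibrillar collagens have a median of -0.031.

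The profile most like the mean of the 7 genes was sought among 6117 genes with a mean of at least 10 FPKM, by the root mean square difference of log2 CPM, centred on each gene's mean, over the 6 samples. The 5 nearest other genes were Ppp1r1b (0.0513), Chst11 (0.0525), Fgfrl1 (0.0610), Hr (0.0642) and Penk (0.0945). Chst11 encodes a chondroitin sulfotransferase of cartilage and Fgfrl1 a receptor that binds FGF without a kinase domain. Chst11 went from 36.0 ± 4.69 to 21.3 ± 1.27 FPKM (SD, n = 3 each) and Fgfrl1 from 46.7 ± 3.73 to 28.3 ± 1.64 FPKM. Of the 7 genes themselves, Col9a2 was nearest to their mean (0.0299), and Col9a3 (0.172), Col11a1 (0.172) and Col27a1 (0.317) were farthest. Likeness over 6 samples is a description and was not tested.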

How the data were processed

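Poly(A) RNA of 6 chondrocyte samples (3 CON, 3 RA) was sequenced on an Illumina HiSeq instrument from NEBNext Ultra libraries. Per the file headers, the authors deposited for each sample 1 raw read count per gene for 18923 genes, and beside it the FPKM, which is the count divided by gene length and by the total count of that sample. The submitters' processing notes name HISAT2, HTSeq 0.13.5 and the build Rnor_6.0; settings and strand use are not given in the sources used here, so overlapping genes are uncertain. Groups and numbers came from the sample titles. Counts were normalized with TMM and tested with edgeR 4.0.16 in R 4.3.3 (glmQLFit, glmQLFTest, no covariates); filterByExpr with a minimum count of 10 kept 13438 genes. Standard errors were derived from the F statistic, and levels are FPKM. Where identifiers shared a symbol, the one with the most reads was used. A floor of 3 counts, the most that a count of 0 allows, equal 0.0789 to 0.102 CPM. On simulated RA against CON counts of 13438 genes, edgeR recovered 75% of genes changed by a log2 fold of 1 and 98% of those changed by 2, with 6 false calls. Smaller changes, such as those of most fibril collagen genes, and an outlying sample were not simulated. Alternatives used DESeq2 1.42.0, limma 3.58.1 on log2(FPKM + 0.1) and log2(FPKM + 1), other scalings and filters, and each sample left out. The genes, lists and thresholds were chosen with earlier results of these data known. In each list of related genes (not of cell type markers) the text names every called gene, or the 4 with the largest changes where over 4 were called, and the SOX trio, Col1a1, Col3a1 and Col10a1. Other genes, among them the markers named, Matn4, Adamts14, the chaperone genes and the collagens other than these, were picked after their values were seen. List genes without an entry in the files were not analysed here. Promoter sequences are from RefSeq (GRCr8), and no coordinates of the files' build are given.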

Additional observations from a re-analysis of the deposited data

How the results depend on the processing

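Every fibril collagen gene was lower in RA under each of the 18 alternatives, including library sizes alone, upper quartile scaling, DESeq2 size factors and scaling computed without the 7 genes, and the number called lower stayed between 5 and 7. The calls of Col2a1, Col9a1, Col9a2 and Col27a1 held under all of them. With each sample left out in turn, Col9a3 lay between -0.68 and -0.42 (called only without CON sample 1), Col11a1 between -0.62 and -0.56 (not called without CON sample 1) and Col11a2 between -0.85 and -0.59. On the adjusted p alone Col9a3 passed at -0.52 with all samples. It also passed by DESeq2 (0.00178) and, in edgeR, with the other scalings and filters (0.0226 to 0.0476). It did not pass in 5 of the 6 sets with a sample left out (0.0921 to 0.161, edgeR) nor by limma with either pseudocount (0.0863 and 0.0907). By the adjusted p alone 1319 genes were called in all, against 667 by the main rule. With an unadjusted p and the fold threshold 1017 were, and with limma on log2(FPKM + 1) 434. With 1 sample left out, the log2 difference in Col11a2 against Col11a1 ran from -0.29 to 0.040, positive without CON sample 2 or 3, and that in Col9a1 against Col2a1 from -0.19 to 0.019, positive without CON sample 1. That in Col11a1 against Col2a1 ran from 0.041 to 0.36 and that in Col9a2 against Col9a1 from 0.041 to 0.16, lowest without CON samples 3 and 1. Among the lists of related genes, leaving out CON sample 1, a step chosen after seeing the data, added 2 calls and removed 0. The added calls were Matn4 (-0.69) among the genes for fibril surface proteins and Col16a1 (-0.61). Col16a1 was the 1 lower call among the collagens of types VI, X, XII and others. The causes of these shifts were not tested. Over all genes, deviations of same-numbered samples correlated at 0.093, -0.012 and 0.012. The sources used here do not say whether the replicate numbers pair the samples. With the number as a replicate block, 684 genes were called, with the same 6 of the 7 fibril collagen genes among them. The block lowered the SE of Col2a1 (0.119 to 0.0717), Col11a2 (0.134 to 0.0770) and Col9a3 (0.134 to 0.0921, edgeR adjusted p = 0.0102). For Col9a1 (0.0537 and 0.0542) and Col11a1 (0.0453 and 0.0466) it changed little. Ratios could not reach an exact p below 0.1 with 3 samples a group.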
